A study of Mus musculus with 6 samples.

Results

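The genes described here were scarce in the hippocampus of sham-operated mice and higher after cerebral ischemia. They were chosen from the authors' deposited table of 637 called genes by thresholds on its group means: a sham mean under 100 normalised reads and an ischemia mean at least 2 times as high. A normalised read is a read count divided by the size factor of its library. Of the 66 rows inside both thresholds, 16 were left out by name. These were the genes starting with Ccl, Cxcl, Mir or Kcn, together with Atf3, Il1b, S100a8, S100a9, Areg, Adm and Plaur. That left 50 genes, of which 38 had a symbol and 12 had none.

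RNA was sequenced from the hippocampus of wild type C57BL/6 mice aged 56 days, with 3 samples after MCAO (occlusion of the middle cerebral artery, which supplies much of the forebrain) and 3 after a sham operation, its surgical control. Both groups are titled 2 h, and the labels do not state whether this is the length of the occlusion or the time after it. The labels name no transgene, allele or drug in either group. Whether the 3 samples of a group are separate animals is not stated, and the authors' p-values then cover only the variation between these samples, part of which may be technical. The table names its columns M2 and S2. These initials were taken to stand for MCAO and sham, and all directions below depend on it.

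The rule used the same contrast as the authors' test, so levels, folds and p-values of these genes are a description and carry no test of their own. The authors called 415 genes higher in ischemia at an adjusted p of 0.05, which is 1.47% of an inferred 28319 genes tested, and calls in either direction made up 2.25%. All 50 genes are among the 415 by choice, and nothing is read from that count. In whole tissue, more cells of a type and more RNA per cell cannot be told apart.

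Cells of an ischemic brain release ATP, glutamate and other signals of damage, and receptors for these signals reach transcription through calcium, MAP kinases, NF-kappaB and STAT proteins. Many genes that answer within hours are transcribed little at rest and have short-lived messenger RNAs. Among their products are transcription factors, secreted ligands, receptors of innate immunity, inhibitors of proteases and intracellular proteins that limit the same signals.

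Scarce did not mean silent. Of the 50 genes, 45 had reads in all 3 sham libraries, 4 had reads in some of them, and Tfpi2 alone had none. The deposited table holds only group means, but each mean is an average of 3 whole read counts divided by fixed size factors, and the whole reads of each library were recovered from its digits. Libraries are lettered A to C by falling size factor (0.837 to 1.20), and no letter can be matched to a replicate number. Reads were recovered in both groups for 42 genes. In ischemia, 7 others had several possible solutions and the mean of Pim1 was above the limit of 600 set for the search. The total reads of each library are not known from the table.

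Sham means of the 50 genes ran from 0 to 99.6 normalised reads with a median of 28.6, in the authors' deposited table. In sham, 16 genes lay under 10, 22 from 10 to under 50, and 12 from 50 to under 100. Ischemia means ran from 14.5 (Tfpi2) to 1648 (Pim1) with a median of 141, and 21 of them stayed under 100. Those 21 genes were still below the sham threshold after ischemia. The median fold of the means was 6.39 (log2 2.68), with Tfpi2 at its lower bound, against 1.94 (log2 0.96) for the 365 other rows that were higher. The rule favours this gap, since the 50 genes had to reach 2-fold and the others only had to be called. The 365 include the 16 rows left out by name. A call at few reads needs a larger fold, and no row with a sham mean under 100 was called higher by less than 2-fold (0 rows). Folds reached 8 or more in 15 genes and stayed below 4 in 17.

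**Figure D1:**
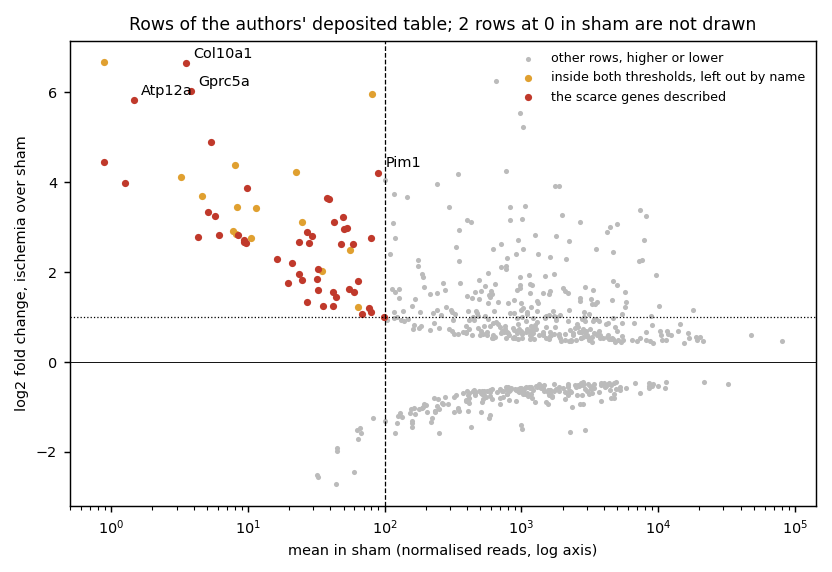
Each point is 1 row of the authors' deposited table, with the sham mean in normalised reads on a log x axis and the log2 fold change, ischemia over sham, on the y axis; dashed and dotted lines mark the thresholds of 100 and 2-fold. The 50 scarce genes (49 drawn, in red) fill the upper left, and no higher row lies between the 2-fold line and 0 at sham means under 100.

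Members nearest the sham threshold were Socs3 (80.0), Pim1 (89.1) and a gene without a symbol described as a regulator of G-protein signaling (99.6), by the authors' deposited table. Just outside lay Lrrc32 (109.8), Tmem252 (112) and Gem (115), which reached 577, 346 and 973 in ischemia. The lowest folds inside were 2.02 for the same gene without a symbol, 2.10 for A930033H14Rik and 2.16 for Edn1. Gem, outside, and Rrad, inside, encode small GTPases of the same family.

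In all 42 genes with recovered reads in both groups, the lowest ischemia library exceeded the highest sham library. The choice of genes favours this outcome. How many of all genes tested were free of such overlap is not known here, and the 1.47% called higher is another measure. Among the 7 genes with several solutions, every solution kept the groups apart for 6. For the other, a gene without a symbol, 1 of its 2 solutions put the lowest ischemia library at 74.7 normalised reads, under the highest sham library at 81.3.

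**Figure D2:**
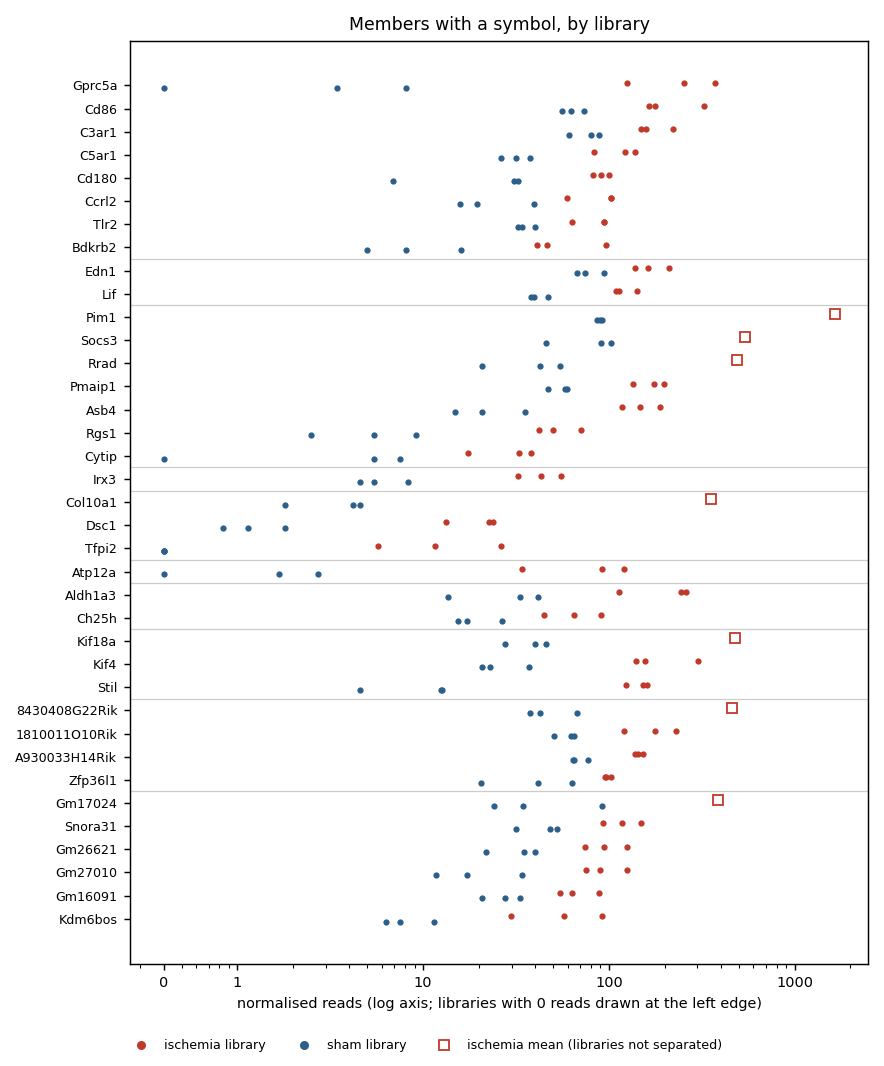
Normalised reads (log axis) of 37 genes with a symbol, grouped by role with grey lines between groups; each dot is 1 library (ischemia red, sham blue), and open squares are ischemia means whose libraries could not be separated. Ischemia dots lie to the right of the sham dots of the same gene in every row with both, down to Tfpi2 with no sham reads, an outcome that the choice of genes favours.

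Promoter sequences show where inducible genes hold sites for the factors that such signals activate. RefSeq (GRCm38.p6) gave the promoter, 250 bases before to 50 bases after the start, for 22 of the 50 genes. At 44% this is too few to compare with other genes. The matches are listed, and shares over all genes stand beside them for reference, with no comparison drawn. The sites below are the full cAMP response element, bound by CREB and its relatives, and the AP-1 site, bound by Fos and Jun dimers. Kif18a and Ch25h hold the cAMP response element, read as TGACGTCA. Lif and C3ar1 hold the AP-1 site, read as TGACTCA or TGAGTCA. Capitals mark the site, and each sequence runs 5′ to 3′ along the strand of the gene.
Kif18a (chr2:109280488-109280787, plus strand): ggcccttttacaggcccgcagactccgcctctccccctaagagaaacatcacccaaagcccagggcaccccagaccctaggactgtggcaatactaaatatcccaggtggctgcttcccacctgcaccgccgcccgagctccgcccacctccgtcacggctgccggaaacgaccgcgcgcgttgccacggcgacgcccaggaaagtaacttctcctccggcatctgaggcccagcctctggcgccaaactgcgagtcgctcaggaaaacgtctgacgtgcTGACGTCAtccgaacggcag
Ch25h (chr19:34475099-34475398, minus strand): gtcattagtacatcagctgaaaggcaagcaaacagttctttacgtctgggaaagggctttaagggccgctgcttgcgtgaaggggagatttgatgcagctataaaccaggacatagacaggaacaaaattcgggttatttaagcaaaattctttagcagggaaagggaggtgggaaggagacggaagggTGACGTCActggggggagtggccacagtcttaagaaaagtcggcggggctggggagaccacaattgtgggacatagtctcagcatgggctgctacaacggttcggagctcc
Lif (chr11:4257318-4257617, plus strand): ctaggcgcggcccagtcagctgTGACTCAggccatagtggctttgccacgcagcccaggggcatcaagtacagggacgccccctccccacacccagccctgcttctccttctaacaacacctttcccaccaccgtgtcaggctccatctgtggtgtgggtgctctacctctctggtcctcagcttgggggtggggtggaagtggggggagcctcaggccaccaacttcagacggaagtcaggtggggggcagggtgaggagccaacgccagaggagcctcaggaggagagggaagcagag
C3ar1 (chr6:122856108-122856407, minus strand): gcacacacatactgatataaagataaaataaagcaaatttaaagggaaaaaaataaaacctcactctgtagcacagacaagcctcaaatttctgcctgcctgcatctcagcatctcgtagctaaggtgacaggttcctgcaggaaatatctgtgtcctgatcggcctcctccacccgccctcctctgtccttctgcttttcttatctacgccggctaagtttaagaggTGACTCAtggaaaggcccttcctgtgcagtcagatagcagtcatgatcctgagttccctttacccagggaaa
The site of Ch25h lies 61 to 54 bases before its start, that of C3ar1 22 to 16 bases before, and that of Lif 228 to 222 bases before. The site of Kif18a lies after its start. Among 27025 genes with a promoter of this length, 2.03% hold the cAMP response element and 5.95% the AP-1 site, on either strand. An NF-kappaB site was found in Ccrl2, Lif and Tlr2 (9.55% of all genes), a TATA box (TATAAA, forward strand only) in C3ar1, Ch25h, Col10a1 and Zfp36l1 (9.77% of all genes), and a CArG box, bound by serum response factor, in 0 of the 22 (1.81% of all genes). In the 150 bases before the start alone, the NF-kappaB site was left in Ccrl2 and the TATA box in Col10a1 and Zfp36l1 (5.29% and 5.75% of all genes). In that window the cAMP response element was left in Ch25h and the AP-1 site in C3ar1 (1.58% and 3.32% of all genes). A match is a string of letters and shows no binding.

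Roles could be given to the 38 genes with a symbol, and statements on roles cover these alone. Receptors and their modulators made up 8 genes, with a median fold of 3.57. Gprc5a, an orphan receptor induced by retinoic acid, had the largest fold of the group. It had 125, 254 and 373 normalised reads in ischemia libraries A, B and C against 0, 8.13 and 3.43 in sham. Its means of 250.5 and 3.85 differed 65.0-fold (by the authors' deposited table, adjusted p = 8.41e-06). Few sham reads carry that ratio: the log2 fold of 6.02 became 7.19 without sham library B and 5.44 without sham library A.

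Surface proteins of immune cells formed the rest of this group, apart from Bdkrb2, the bradykinin B2 receptor. C5ar1 and C3ar1 bind the complement peptides C5a and C3a. C5ar1 had 83.0, 139 and 122 normalised reads in ischemia against 31.7, 26.2 and 37.7 in sham, a 3.60-fold difference of the means. C3ar1 had 149, 222 and 158 against 60.8, 80.4 and 88.1, which is 2.30-fold. In both genes the ischemia libraries lay clear of sham, and library B was the highest. Tlr2 senses bacterial lipopeptides and products of damaged cells, and Cd180 is a relative of the Toll-like receptors. Tlr2 had 93.8, 94.5 and 63.4 against 34.2, 32.5 and 40, and Cd180 had 91.3, 100.2 and 82.5 against 30.8, 32.5 and 6.86. Ccrl2, which binds chemerin without signalling, had 102.9, 102.5 and 59.8 against 15.8, 39.7 and 19.4. In none of these genes did an ischemia library fall to the highest sham library, which the choice of genes favours. Cd86, a co-stimulatory ligand of T cells on antigen-presenting cells, had 178, 325 and 165 against 55.8, 62.3 and 73.2. Its 3.49-fold difference had the highest adjusted p of the 50 genes (0.0481, by the authors' deposited table). Bdkrb2 had 96.3, 41.0 and 46.6 against 5.0, 8.13 and 16, with its highest ischemia value in library A.

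Leukocytes and microglia both express several of these receptors. Of 14 markers of neutrophils and monocytes, S100a8 and S100a9 were in the authors' deposited table, both higher in ischemia. Their summed level was 57.4 to 175 normalised reads in the ischemia libraries and 11.7 to 19.4 in sham. The 12 others are not in the table and their levels are unknown here. None of 14 markers of microglia and macrophages and none of 10 of lymphocytes was called (0 in each direction). The part of these cells in the receptor values was not tested. Of the other marker lists, oligodendrocytes had 4 of 10 genes called higher, dentate and pyramidal neurons 3 of 14 lower and endothelium 1 of 12 lower. Over all genes tested, 1.47% were called higher and 2.25% in either direction, and the lists were chosen with earlier results known. Lists of astrocytes, interneurons, pericytes, fibroblasts and choroid plexus had 0 called genes in the authors' deposited table.

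**Figure D3:**
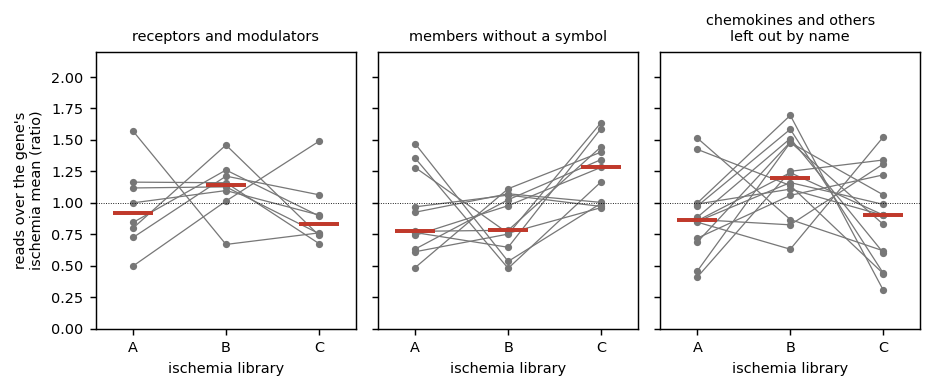
Ratio of each ischemia library to the gene's own ischemia mean (y axis) in libraries A, B and C (x axis) for 8 receptors and modulators, 11 genes without a symbol and 14 genes left out by name; each grey line is a gene and each red bar a median. Medians were highest in library B for receptors (1.14) and for the genes left out by name (1.20), and in library C for genes without a symbol (1.28).

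The ischemia library that was most often highest was not the same in every group of genes. Library B was the highest for 5 of 8 receptors, and library C for 6 of 11 genes without a symbol. These counts are small, and a difference between the groups of genes was not tested. Across the 42 genes, A was highest in 10, B in 13 and C in 19. Summed over these genes, the ischemia libraries had 4740, 5628 and 5974 normalised reads and the sham libraries 1223, 1152 and 1303. Library A had the lowest sum in ischemia and library C the highest.

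The spread between libraries was wide. The coefficient of variation in ischemia had a median of 27.7% (3.96 to 73.0%, 42 genes), and in sham a median of 37.7% (2.68 to 106%, 49 genes). The SD of the ischemia reads was more than 2 times the SD of counting alone in 29 of 42 genes and below it in 4. For comparison, 27 other higher rows within reach of the search had a median of 20.9% in ischemia, and 91 such rows had a median of 13.5% in sham. The 27 and the 91 include genes left out by name, which lie inside the same thresholds, 14 of them among the 27. The sets differ in read number, and the values are given side by side as a description.

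Secreted ligands were Lif, a cytokine of the interleukin 6 family that signals through STAT3, and Edn1, the precursor of the vasoconstrictor endothelin 1. Lif had 109.6, 114 and 142 normalised reads in ischemia and 38.3, 39.7 and 46.9 in sham, a 2.93-fold difference with narrow spread (by the authors' deposited table, adjusted p = 0.000637). Edn1 had 212, 162 and 137 against 94.2, 67.7 and 74.3. Its log2 fold of 1.11 dropped to 0.93 without ischemia library A, under the threshold of 2-fold. Lif was the only called gene of 16 listed interleukin 6 family ligands and receptors, and Edn1 of 51 neuropeptides and hormones. Among other ligand lists in the authors' deposited table, 2 of 43 growth factors (Bdnf and Hbegf) and 2 of 26 genes of the tumour necrosis factor family (Tnfrsf12a and Tnfrsf1b) were called higher, and Tnfrsf25 lower. The hormone and growth factor lists hold neither Adm nor Areg, 2 ligand genes left out by name that were both called higher. Adm averaged 140.9 normalised reads in ischemia against 34.7 in sham, and Areg 90.3 against 8.27. Called higher were 1.47% of all genes tested. Genes outside the table were not called or not tested, and their levels are not known here.

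Intracellular signalling held 7 genes with a median fold of 6.87, and several encode brakes on the pathways named above. Pim1, a serine/threonine kinase induced by STAT factors, had the most reads of the 50 genes in ischemia, a number not divided by length. It stood at 1648 normalised reads against 89.1 in sham, where the libraries lay close together at 89.2, 86.7 and 91.5. Per kilobase of exon in its GENCODE M21 model, its ischemia level was 490.2. Its difference was 18.5-fold (by the authors' deposited table, adjusted p = 0.00249). Socs3, a feedback inhibitor of cytokine receptors, averaged 542 against 80.0, with 45.8, 91.2 and 103 in the sham libraries. That is 6.77-fold, with an authors' adjusted p of 6.23e-34 in the deposited table. Rrad, a small GTPase that inhibits calcium channels, averaged 489.8 against 39.4 (20.8, 42.5 and 54.9), which is 12.4-fold. The ischemia libraries of Socs3 and Rrad each had several solutions, all above their sham libraries.

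The other genes of this group were Asb4, a substrate adaptor of a ubiquitin ligase, Rgs1, which speeds GTP hydrolysis by G protein alpha subunits, Pmaip1, the pro-apoptotic protein Noxa, and Cytip, which binds cytohesins. Asb4 had 148, 118 and 188 normalised reads in ischemia and 20.8, 35.2 and 14.9 in sham. Rgs1 had 70.6, 50.1 and 41.8 against 2.50, 5.42 and 9.15, a 9.52-fold difference. Pmaip1 had 174, 198 and 135 against 59.2, 47.0 and 58.3. In each of the 3, the gap between the groups was wider than the range within either group. Cytip rested on few reads, at 17.4, 33.0 and 38.3 against 7.50, 5.42 and 0. Its log2 fold of 2.78 became 3.45 without sham library A and 2.19 without sham library C. Of 20 listed regulators of G proteins and small GTPases, 8 were called higher and 0 lower in the authors' deposited table: Arl4d, Arl5b, Gem, Rgs1, Rgs2, Rgs4, Rgs16 and Rrad. Over all genes tested, 1.47% were called higher. The list was chosen with earlier results known, so its count is no result about these families.

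Matrix, adhesion and protease inhibitor genes were 4, with a median fold of 15.6 with Tfpi2 at its bound. Col10a1, the collagen of hypertrophic cartilage, had the largest finite fold of the 50 genes. It averaged 353 normalised reads in ischemia against 3.52 in sham, where the libraries held 5, 2 and 4 reads, and its fold was 100.4 (by the authors' deposited table, adjusted p = 9.69e-05). Both solutions for its ischemia libraries lay far above sham, the lowest library at 112 normalised reads. Col10a1 was the only one of 29 listed collagens in the table. Of all genes tested, 1.47% were called higher and 2.25% in either direction.

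Tfpi2, an inhibitor of serine proteases of the coagulation and plasmin systems, had 14, 5 and 22 reads in ischemia and 0 in each sham library. Taking 3 reads over the sham group as the upper limit (0.943 normalised reads), it was at least 15.4-fold higher (log2 3.95). Leaving out ischemia library C put that bound at 3.20 (log2), and it was 3.26 and 3.33 without sham libraries A and B, where fewer libraries set a higher limit. Dsc1, a cadherin of desmosomes, had 16, 21 and 19 reads in ischemia and 1, 2 and 1 in sham, a 15.8-fold difference of the means. The values of Tfpi2 and Dsc1 rest on the fewest reads of the 4. Of 33 listed keratin and epithelial genes, 1 was called in the authors' deposited table, Dsp, and it was lower. That list does not hold Dsc1, which was called higher. Calls in either direction made up 2.25% of all genes tested.

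Atp12a, the catalytic subunit of a proton and potassium exchanging ATPase, was the only pump and the only one of 19 listed P-type ATPases and pump subunits called. It had 34.0, 120.7 and 92.0 normalised reads in ischemia and 1.67, 2.71 and 0 in sham, which is 56.4-fold (by the authors' deposited table, adjusted p = 0.0004). The log2 fold of 5.82 became 6.63 without sham library B. Enzymes were Aldh1a3, which makes retinoic acid, and Ch25h, which makes 25-hydroxycholesterol. Aldh1a3 had 244, 114 and 262 against 41.7, 13.5 and 33.2, lowest in library B of each group, though the letters pair no libraries. Ch25h had 44.8, 91.1 and 64.6 against 26.7, 15.4 and 17.2. Irx3, a homeodomain transcription factor, had 32.4, 43.3 and 55.0 against 8.33, 5.42 and 4.58, a 7.13-fold difference. Irx3 was the only transcription factor among the 38 genes with a symbol, Atf3 having been left out by name. Of 45 listed inducible transcription factors, 23 were called higher in the authors' deposited table, Atf3 among them, and 1 lower. That list too was chosen with earlier results known, and 1.47% of all genes tested were called higher.

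Genes of the mitotic spindle and centriole formed a group of 3 with a median fold of 12.6. Kif18a and Kif4 are motors that act on chromosomes during division, and Stil is needed to build centrioles. Kif18a averaged 476 normalised reads in ischemia against 37.9 in sham (27.5, 46.1 and 40), a 12.6-fold difference (by the authors' deposited table, adjusted p = 6.94e-10). Kif4 had 140.3, 157 and 302 against 20.8, 37.0 and 22.9, and Stil had 124, 153 and 160.2 against 12.5, 12.6 and 4.58. The ischemia libraries of Stil lay closer together than those of Kif4, and its means differed 14.7-fold. In the GENCODE M21 models, Kif4 has 5514 exon bases. The longest single stretch that they share with an exon of a gene on the opposite strand is 832 bases. No source used here gives how strand was used in counting, and if it was ignored, reads on the shared bases cannot be told apart.

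Among other proteins, 8430408G22Rik (now Depp1) averaged 461 normalised reads in ischemia against 49.3 in sham, a 9.35-fold difference with the smallest adjusted p of the 50 genes (1.01e-36, by the authors' deposited table). Its sham libraries had 42.5, 67.7 and 37.7, and both solutions for ischemia lay above them. 1810011O10Rik (now Tcim) had 177, 231 and 121 against 65.0, 50.6 and 62.9. A930033H14Rik was low in fold but tight, at 144, 138 and 152 against 65.0, 76.8 and 64.1. Zfp36l1, which binds AU-rich elements and speeds decay of messenger RNAs, had 103, 95.7 and 96.8 against 63.3, 41.6 and 20.6. Its log2 fold of 1.24 dropped to 0.91 without sham library C. Zfp36l1 also shares an exon stretch of 1490 bases with a gene on the opposite strand, the longest such stretch among the 38 genes with a gene model.

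Opposite-strand exon overlap touched 14 of the 38 genes with a GENCODE M21 model (36.8%) and 151 of 541 other rows of the table (27.9%). With a single shared stretch of at least 100 bases it was 10 of 38 (26.3%) against 118 of 541 (21.8%). After Zfp36l1 and Kif4, the longest single stretches were 337 bases in 1810011O10Rik, 261 in Pim1, 193 in Atp12a and 182 in Cd180. Totals of shared bases per gene are not given here. Values of such genes are uncertain where counting ignored strand. Models were matched by symbol, while 612 of the 637 row identifiers are of a BALB/cJ annotation. The exons that were counted may therefore differ from those behind the overlaps and the levels per exon length.

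Noncoding genes were 6, with a median fold of 3.75, and 4 of them overlap the body of another gene that was called higher. Whether they lie wholly within it was not checked. Overlap with the body of another row of the table, higher or lower, held for 0 of the 32 protein-coding genes with a model and for 4 of 11 noncoding rows outside the 50. The 4 share 0 exon bases with the overlapped gene. Gm17024 overlaps Ifrd1 and Gm27010 overlaps Dleu2, each on the same strand by the GENCODE annotation. Snora31, a small nucleolar RNA, overlaps Tpt1 on the same strand, and Gm16091 overlaps Tpm4 on the opposite strand. The log2 fold was 2.95 for Gm17024 and 2.82 for Ifrd1, and 2.21 for Gm27010 and 1.04 for Dleu2. It was 1.44 for Snora31 and 0.70 for Tpt1, and 1.34 for Gm16091 and 0.91 for Tpm4, all in the authors' deposited table. The noncoding gene had the larger fold in each of the 4, by 0.13 to 1.16 on the log2 scale. The choice of genes favours this: the noncoding genes had to reach 2-fold, and the overlapped genes only had to be called.

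**Figure D4:**
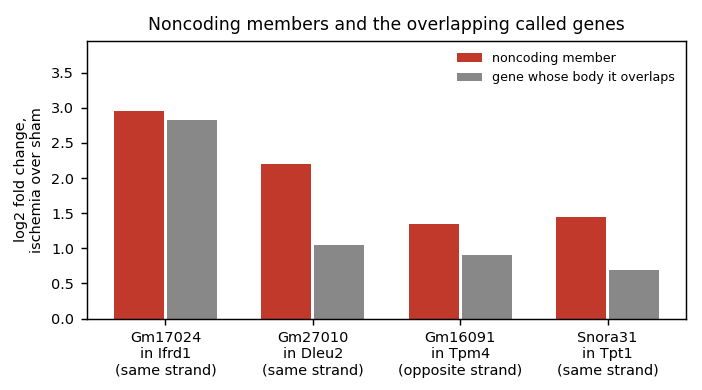
Log2 fold change, ischemia over sham (y axis), of the 4 noncoding genes and of the called gene whose body each overlaps (x axis), from the authors' deposited table. Gm17024 and Ifrd1 lie close at 2.95 and 2.82. The others lie above the overlapped gene, an outcome that the 2-fold threshold for the noncoding genes favours.

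Levels per exon length, by the GENCODE M21 models, placed these noncoding genes against the overlapped ones. Gm17024 had 611 normalised reads per kilobase of exon in ischemia and 78.9 in sham, and Ifrd1 had 1512 and 214. Gm27010 had 112 and 24.4 per kilobase, and Dleu2 46.8 and 22.7. Snora31 had 924 and 339.9 per kilobase and Tpt1 7009 and 4326, while Gm16091 had 71.6 and 28.2 and Tpm4 921 and 490.2. Per length, Gm17024, Snora31 and Gm16091 were thus below the overlapped gene in both groups, whereas Gm27010 was above Dleu2 in ischemia and close to it in sham. Unspliced transcripts of the overlapped gene and transcripts of the noncoding gene cannot be told apart in these values. For Gm16091, on the opposite strand, this holds only if counting ignored strand.

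By library, Gm27010 had 75.5, 90.0 and 125.5 normalised reads in ischemia against 34.2, 11.7 and 17.2 in sham. Snora31 had 149, 93.4 and 118 against 48.3, 31.6 and 52.6, and Gm16091 had 88.8, 54.7 and 63.4 against 27.5, 20.8 and 33.2. Gm17024 averaged 388 against 50, and among its sham libraries (91.7, 34.3 and 24.0) library A was far above the others. The other 2 noncoding genes were Gm26621, whose locus holds the microRNA Mir30b, and Kdm6bos, antisense to the histone demethylase gene Kdm6b. Gm26621 had 74.7, 94.5 and 125.5 against 35.0, 21.7 and 40. Kdm6bos had 57.3, 29.6 and 92.0 against 7.50, 6.32 and 11.4. Its longest exon stretch shared with a gene on the opposite strand is 149 bases.

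The 12 genes without a symbol had a median fold of 6.31 and ranged from 2.02 to 29.6. The largest fold belonged to a gene with 96.3, 118 and 258 normalised reads in ischemia and 9.17, 4.52 and 2.29 in sham, and its log2 fold of 4.89 became 5.53 without sham library A. Next came a gene with 34, 9 and 16 reads in ischemia against 1, 2 and 0 in sham (21.8-fold), whose log2 fold of 4.45 became 5.53 without sham library B and 3.86 without sham library C. A gene at 39.0, 33.0 and 81.3 against 5.0, 9.03 and 1.14 was 10.1-fold higher, and its log2 fold of 3.34 became 4.06 without sham library B. These folds rest on sham libraries of a few reads each, and leaving out a single sham library (A, B or C) moved them.

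The smallest adjusted p of the unnamed genes was 1.65e-21 in the authors' deposited table, for a gene at 272, 315 and 295 normalised reads in ischemia and 24.2, 24.4 and 94.9 in sham. Sham library C stood far above the other 2 for this gene, and its log2 fold of 2.62 became 3.60 without it. Another gene, at 47.3, 47.8 and 88.5 against 17.5, 3.61 and 6.86, had a log2 fold of 2.71 that became 3.55 without sham library A. A gene whose deposited description names the protein WWC3 was 4.17-fold higher, at 175, 104 and 131 against 23.3, 23.5 and 51.5. The others, apart from the gene described as a regulator of G-protein signaling, had folds from 4.91 to 8.66. That regulator gene had 194, 213 and 195 against 78.3, 100.3 and 120.1. It was the least changed of the 50, and its log2 fold of 1.01 dropped to 0.97 without ischemia library B and to 0.87 without sham library A.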

How the data were processed

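Hippocampal RNA was sequenced in 6 samples, 3 per group. The authors deposited 1 table of 637 rows with group means of normalised read counts (a signal, in normalised reads), log2 fold changes and p-values with adjusted p-values, per the file headers; 0 of its columns hold values of a single sample. Of the row identifiers, 612 are of a BALB/cJ annotation, while the mice are labelled C57BL/6. Bowtie 0.12.2 and mm8 are named, with no role, in the submitters' processing notes. Counting, strand use, normalisation and test: not given in the sources used here.

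From the deposited means, Python 3.11.15 (numpy 2.4.6, sympy 1.14.0) searched for size factors and whole reads of 3 libraries per group. Steps of 1 read were sought between 0.2 and 0.6, and means up to 600 were separated, a limit chosen after the data were seen. The method was tested on simulated data. Of 202 ischemia means, 144 had 1 solution, as had 207 of 241 sham means. The number of genes tested was inferred from the authors' p-values and adjusted p-values. No test of a gene was run, since the table holds group means only.

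The genes and lists were chosen with earlier results of these data known. Roles were assigned from symbols and descriptions after values had been seen. Described in full were the gene at 0 in sham, the 12 largest finite folds, the 4 smallest p-values of each role and the 3 genes nearest each threshold; other genes were added after their values were seen. Annotation came from GENCODE M21 and promoters from RefSeq. Alternatives were other thresholds, pseudocounts of 1 and 10, leaving out each library, a stricter overlap and a narrower promoter. Of the 50 genes, 1 is counted but not reported here.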

Additional observations from a re-analysis of the deposited data

How the results depend on the processing

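The number of genes was 50 and moved beyond 1.5 times under 1 alternative, a fold of at least 4, which left 33. It was 38 with a sham mean under 50, 36 at an authors' adjusted p of at most 0.01 and 45 with an ischemia mean of at least 50. It was 38 with a symbol and 46 without the genes that overlap another higher gene, a setting chosen after seeing the data. The median log2 fold of 2.68 became 2.60 with a pseudocount of 1 and 1.82 with a pseudocount of 10. Over the 42 genes with recovered reads it was 2.63, and 2.33 to 2.59 leaving out each library in turn. For the 38 genes chosen for full description by the rules stated above, 256 alternative values were computed. All 256 stayed above 0, 6 were below 1 on the log2 scale (lowest 0.87), and 42 moved beyond the spread between libraries. This set includes genes without a symbol and is not the 38 genes with one. It leaves out C3ar1, Tlr2, Cd86, Bdkrb2, Pmaip1, Cytip, Kdm6bos and Gm16091, and also some of the genes without a symbol. The share with an opposite-strand overlap was 36.8%, and 26.3% with a single shared stretch of at least 100 bases.

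No paired analysis was possible because the table holds group means and no recovered library carries a replicate number. Leaving out libraries was not run for the 8 genes without a single solution in ischemia. The depth of the libraries is unknown.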
